A study of Mus musculus with 4 samples.

Results

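The genes described here are 43 genes of the absorptive cells of the small intestine. They comprise hydrolases of the brush border, transporters of sugars, peptides, amino acids and ions, structural genes of microvilli, and 3 transcription factors of these cells. They were chosen by name, with earlier results of these data known. Each was read from the probe set that names it alone and has the highest mean over the 4 arrays. A probe set was found for 42 of the 43, each with a single one, and Ggt1 (a gamma-glutamyltransferase) was not analysed here. In all, 19938 genes had such a probe set. Of the 42, 41 lay above the floor for expression on all 4 arrays. The exception was the apical calcium channel gene Trpv6, with levels of 6.00 and 5.79 on the control arrays and 5.39 and 5.64 in the Zip7 KO arrays labelled Lgr5-Hi and Lgr5-Med, and it enters no count below.

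Enterocytes take up nutrients across a brush border of densely packed microvilli. Enzymes anchored in its membrane split the last oligosaccharides and peptides, and sodium- or proton-coupled transporters next to them take in the products, which leave through the basolateral membrane. Villin and other actin-bundling proteins, motor myosins and protocadherin links between microvillus tips build and order this surface. Many of the enzyme and transporter genes rise as crypt cells become enterocytes, largely under the transcription factors HNF4A, HNF4G and CDX2. The genes of these factors are also described here.

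RNA was measured in crypt cells of the small intestine of adult mice, sorted by the level of an EGFP reporter, on 4 Affymetrix arrays with 1 array for each genotype and sorted fraction. All mice carried Villin-CreERT2, a tamoxifen-activated Cre made throughout the intestinal epithelium, and Lgr5-EGFP-ires-CreERT2, a reporter in the stem cell gene Lgr5 that also makes this Cre, and all received tamoxifen for 2 days. The control mice were Zip7flox/+, and so could lose 1 copy of Slc39a7, which encodes the zinc transporter ZIP7 of the endoplasmic reticulum, and the Zip7 KO mice (Zip7∆IEC) were Zip7flox/flox. The fractions labelled Lgr5-Hi and Lgr5-Med were sorted from both genotypes. The number of animals behind an array, their strain and whether the 2 fractions of a genotype came from the same mice are not stated in the labels. The study asked, by its title, what ZIP7 does for proliferation of epithelial cells and for intestinal stem cells.

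Several facts of the arrays bear on all values below. Each group is a single array without replicates, so nothing was tested, and the precision is limited by this number of arrays. Values are on the log2 scale, where a difference of 1 is 2-fold, and the floors for expression, set from receptor genes of the nose, lay between 6.10 and 6.25. Slc39a7 itself stood at 8.92 and 8.61 in the controls labelled Lgr5-Hi and Lgr5-Med and at 9.02 and 8.22 in the Zip7 KO arrays, and the sources used here do not say whether its probes lie within the floxed exons. Lgr5 went against the fraction labels, at 7.79 and 10.97 in controls and 7.93 and 11.24 in Zip7 KO, so fractions are called by their labels throughout. Xist, which coats the silenced X chromosome of female cells, read 11.64 and 11.84 on the controls and below the floor, at 5.59 and 5.43, in Zip7 KO, so that sex and genotype cannot be told apart. Of the 7 pan-epithelial marker genes all were above the floor on every array. Of the 13 lymphocyte and myeloid markers 11 and 12 were above it on the control arrays, and 9 in each Zip7 KO array.

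The DNA before the start of 8 of the genes is printed here, since genes that stood lower together are the pattern of these data and the transcription factors known to control them are among the genes measured. The first 6 are the genes above the floor with a match to a motif of HNF4, CDX2 or HNF1, and the last 2, Slc5a4a and Car4, are those with the lowest Zip7 KO minus control difference under the label Lgr5-Med. Each stretch is the 250 bases upstream of the start in RefSeq's annotation of GRCm38.p6, on the strand of the gene. Alpi is at chr1:87101607-87101856 (minus strand), Sis at chr3:72967864-72968113 (minus strand) and Treh at chr9:44672983-44673232 (plus strand). Slc3a1 is at chr17:85028097-85028346 (plus strand), Slc26a3 at chr12:31437969-31438218 (plus strand) and Cdhr2 at chr13:54701213-54701462 (plus strand). Slc5a4a is at chr10:76147201-76147450 (plus strand) and Car4 at chr11:84957504-84957753 (plus strand). Capitals mark exact matches, on either strand, to CAAAGTNCA (HNF4), CAATAAA (CDX2), GTTAATNAT (HNF1), AGATAA (factors of the GATA family) or TATAAA (the letters of the TATA box).
Alpi: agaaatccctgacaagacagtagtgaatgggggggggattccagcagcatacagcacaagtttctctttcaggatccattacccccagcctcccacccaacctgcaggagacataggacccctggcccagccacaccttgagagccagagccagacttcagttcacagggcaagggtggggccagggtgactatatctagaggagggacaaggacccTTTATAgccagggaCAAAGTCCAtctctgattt
Sis: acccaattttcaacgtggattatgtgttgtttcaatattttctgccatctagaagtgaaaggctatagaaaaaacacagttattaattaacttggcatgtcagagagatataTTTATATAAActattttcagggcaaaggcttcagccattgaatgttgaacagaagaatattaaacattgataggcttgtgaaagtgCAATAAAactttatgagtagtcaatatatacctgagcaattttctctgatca
Treh: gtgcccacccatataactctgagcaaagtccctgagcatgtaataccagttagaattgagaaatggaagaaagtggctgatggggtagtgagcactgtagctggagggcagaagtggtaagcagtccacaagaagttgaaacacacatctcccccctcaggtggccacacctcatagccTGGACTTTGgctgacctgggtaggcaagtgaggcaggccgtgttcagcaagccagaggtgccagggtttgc
Slc3a1: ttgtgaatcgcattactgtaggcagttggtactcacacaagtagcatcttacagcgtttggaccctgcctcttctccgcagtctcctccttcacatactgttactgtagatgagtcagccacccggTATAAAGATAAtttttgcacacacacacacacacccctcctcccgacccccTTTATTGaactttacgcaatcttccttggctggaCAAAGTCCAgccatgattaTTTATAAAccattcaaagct
Slc26a3: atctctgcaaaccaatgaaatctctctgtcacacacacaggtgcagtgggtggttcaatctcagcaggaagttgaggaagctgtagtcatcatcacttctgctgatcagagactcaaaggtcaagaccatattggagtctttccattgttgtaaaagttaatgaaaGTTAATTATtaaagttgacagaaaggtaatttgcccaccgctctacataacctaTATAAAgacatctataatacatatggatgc
Cdhr2: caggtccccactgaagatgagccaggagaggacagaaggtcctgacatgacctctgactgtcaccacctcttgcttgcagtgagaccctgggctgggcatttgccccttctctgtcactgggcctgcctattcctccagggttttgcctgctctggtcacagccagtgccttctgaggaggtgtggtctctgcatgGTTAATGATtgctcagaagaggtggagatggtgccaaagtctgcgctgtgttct
Slc5a4a: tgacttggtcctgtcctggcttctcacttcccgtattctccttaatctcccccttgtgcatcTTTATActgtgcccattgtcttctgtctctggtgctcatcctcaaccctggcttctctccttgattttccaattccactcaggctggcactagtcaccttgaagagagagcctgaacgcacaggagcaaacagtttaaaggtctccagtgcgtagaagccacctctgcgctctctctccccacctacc
Car4: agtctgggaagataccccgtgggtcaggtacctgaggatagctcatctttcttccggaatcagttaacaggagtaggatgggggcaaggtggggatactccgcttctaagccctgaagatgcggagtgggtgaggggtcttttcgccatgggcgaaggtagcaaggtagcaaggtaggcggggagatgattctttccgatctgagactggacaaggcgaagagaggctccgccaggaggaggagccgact
The HNF4 match of Alpi spans bases -19 to -11 from the start, that of Slc3a1 -39 to -31 and that of Treh, on the opposite strand, -71 to -63. The CDX2 match of Sis lies at -52 to -46. Matches to TATAAA were sought over all 250 bases, so they need not be TATA boxes. That of Slc5a4a lies at -188 to -183 on the opposite strand, and those of Sis at -138 to -133 and -134 to -129. Matches overlap in Sis, where 2 matches to TATAAA share bases. In Slc3a1 the same holds, and a match to TATAAA also shares a base with the GATA match. Of the 43 genes 40 are in the promoter table, and Mep1b, Myo7b and Hnf4g are not. The HNF4 motif was present before 4 of these 40 (10%), the fourth being Trpv6, against 1.40% of all 27025 genes of the table. For HNF1 it was 2 of 40 (5%) against 0.866%, and for CDX2 2 of 40 (5%) against 4.89%. GATA matches stood before 9 of 40 (22.5%) against 11.4%, and TATAAA, at any position and on either strand, before 11 of 40 (27.5%) against 14.3%. A gene with several starts counted once if any of them had a match. Over the 32851 single promoters the shares were 1.19% for HNF4, 0.737% for HNF1, 4.20% for CDX2, 9.99% for GATA and 12.4% for TATA. These are matches of letters and show neither binding nor use.

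**Figure D1:**
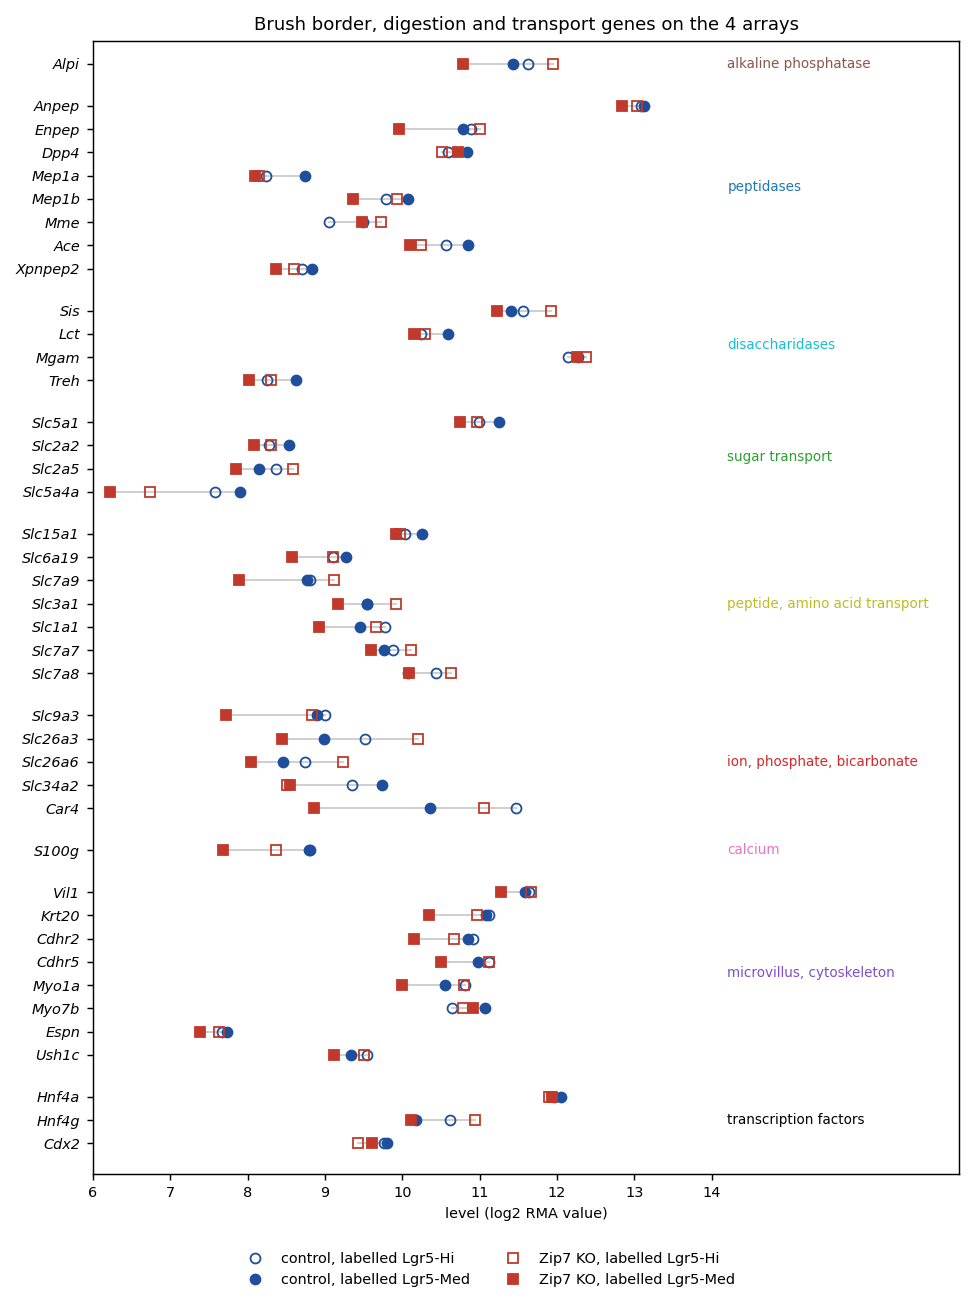
Levels of the 41 genes above the floor on each of the 4 arrays, as log2 RMA values on the x axis, with genes in rows ordered by role and a grey line from the lowest to the highest array. Circles are control and squares Zip7 KO, open symbols arrays labelled Lgr5-Hi and filled symbols arrays labelled Lgr5-Med, and the filled square is the lowest of the 4 in 33 of the 41 rows.

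Under the label Lgr5-Med the brush border genes were lower in Zip7 KO than in control nearly without exception. Of the 41 genes 40 were lower, where 55.8% of all 12243 genes above the floor on either array were, and the median difference was -0.47 against -0.03 over all genes. At least 2-fold lower were 5 of the 41, against 0.621% of all genes, and at least 1.5-fold lower were 15, against 2.1%. Only 1 gene was higher, against 44.1% of all genes, and 0 by 1.5-fold, against 0.425%. In bulk RNA, fewer cells of a type and less of its RNA per cell cannot be told apart. The same direction was already known for a list of enterocyte markers on these arrays when the genes were chosen, so this count is no independent support for it.

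The differences were largest among genes of ion, phosphate and bicarbonate transport, where all 5 were lower with a median of -1.18. Car4, a carbonic anhydrase anchored on the outer face of the brush border, was at 11.47 and 10.36 on the control arrays labelled Lgr5-Hi and Lgr5-Med, and at 11.05 and 8.86 in the Zip7 KO arrays. Its Zip7 KO array labelled Lgr5-Med was thus the lowest, 2.82-fold below its control, and the arrays spanned 2.61, the widest range of the 41 genes. Slc34a2, the sodium-phosphate cotransporter NaPi-IIb, was at 9.35 and 9.74 on the control arrays and 8.51 and 8.55 in the Zip7 KO arrays. Here both Zip7 KO arrays lay below both control arrays, and the difference was -1.20 (2.29-fold) under Lgr5-Med. Slc9a3, the apical sodium-proton exchanger NHE3, was at 8.999, 8.90 and 8.83 on the control arrays and the Zip7 KO array labelled Lgr5-Hi, and at 7.72 in the Zip7 KO array labelled Lgr5-Med. Only that last array stood apart, by -1.18 (2.27-fold) from its control. The chloride-bicarbonate exchanger genes Slc26a3 and Slc26a6, which work in parallel with NHE3 in salt uptake, differed by -0.54 and -0.41.

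Of the sugar transporters all 4 were lower under Lgr5-Med. Slc5a4a, of the family of the sodium-glucose cotransporter, was at 7.58 and 7.90 on the control arrays and at 6.75 and 6.22 in the Zip7 KO arrays labelled Lgr5-Hi and Lgr5-Med. Both Zip7 KO values lay below both control values, and the difference of -1.68 under Lgr5-Med (3.20-fold) was the lowest of the 41. Its lowest value lay close to the floor of that array, 6.16. The main sugar carriers differed less: Slc5a1 (SGLT1, glucose and galactose) by -0.50, Slc2a2 (GLUT2, the facilitative carrier of the basolateral membrane) by -0.46 and Slc2a5 (GLUT5, fructose) by -0.30.

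S100g encodes calbindin-D9k, which carries calcium through the enterocyte. Its levels were 8.79 and 8.81 on the control arrays and 8.37 and 7.68 in the Zip7 KO arrays labelled Lgr5-Hi and Lgr5-Med. Both Zip7 KO arrays were lower, by -0.42 and -1.13 (1.34-fold and 2.19-fold). S100g lies on the X chromosome, as does Xpnpep2. Over all X-linked genes above the floor the median difference was 0.05 (307 genes) under Lgr5-Hi and 0.02 (315 genes) under Lgr5-Med. Over the genes off that chromosome it was 0.02 (11681 genes) and -0.03 (11928 genes). The part of sex in the values of S100g was not tested. Without the 2 X-linked genes, 38 of the other 39 were lower under Lgr5-Med, with a median of -0.46.

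The hydrolases of the brush border were all lower under Lgr5-Med, but by amounts that varied from gene to gene. Alpi, the intestinal alkaline phosphatase, was at 11.62 and 11.44 on the control arrays and at 11.95 and 10.78 in the Zip7 KO arrays labelled Lgr5-Hi and Lgr5-Med. The 2 Zip7 KO arrays thus lay on either side of the controls, and the difference under Lgr5-Med was -0.65 (1.57-fold).

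Among the peptidases 8 of 8 were lower, with a median of -0.56, and 4 of them passed 1.5-fold. Enpep, which removes acidic residues from the amino end of peptides, was at 10.88, 10.79 and 11.01 on the control arrays and the Zip7 KO array labelled Lgr5-Hi, against 9.95 in that labelled Lgr5-Med, a difference of -0.83 (1.78-fold). As for Slc9a3, a single array stood apart. Ace, the angiotensin-converting enzyme, which trims dipeptides from the carboxyl end, was at 10.57 and 10.84 in controls and 10.25 and 10.10 in Zip7 KO. Both of its Zip7 KO values were below both control values, with a difference of -0.74 under Lgr5-Med. Mep1a and Mep1b, the subunits of the metalloproteases called meprins, differed by -0.65 and -0.71, and the X-linked Xpnpep2, an aminopeptidase for bonds before proline, by -0.47. Anpep (aminopeptidase N), Dpp4 (dipeptidyl peptidase 4) and Mme (neprilysin) differed by -0.29, -0.12 and -0.02. Dpp4 and Mme are also known as the leukocyte antigens CD26 and CD10.

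The disaccharidase genes showed a graded picture. Treh, which splits trehalose, differed by -0.61 and Lct, the lactase gene, by -0.44. Sis, the sucrase-isomaltase gene and a classical marker of enterocytes, was at 11.56 and 11.41 in controls and 11.92 and 11.23 in Zip7 KO, a difference of -0.18 under Lgr5-Med. Its relative Mgam, maltase-glucoamylase, differed by -0.01, with levels of 12.14 and 12.27 in controls and 12.37 and 12.26 in Zip7 KO. The arrays of Mgam spanned 0.23, among the narrowest ranges of the 41 genes.

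Of the 7 transporters of peptides and amino acids 6 were lower under Lgr5-Med, with a median of -0.37. Slc7a9 and Slc3a1 encode the light and the heavy subunit of 1 carrier, that of cystine and cationic amino acids, and differed by -0.88 (1.84-fold) and -0.37 (1.29-fold). Slc7a9 was at 8.80, 8.77 and 9.11 on the control arrays and the Zip7 KO array labelled Lgr5-Hi, and at 7.89 in that labelled Lgr5-Med, again a single low array. Slc3a1 was at 9.55, 9.54 and 9.92 against 9.17 in the same order. The neutral amino acid transporter Slc6a19 (B0AT1) differed by -0.70, the glutamate transporter Slc1a1 by -0.53 and the proton-coupled peptide transporter Slc15a1 (PEPT1) by -0.33. The light chains of the basolateral exchangers were at the other end, Slc7a7 at -0.17 and Slc7a8 at 0.01. Slc7a8 was the 1 gene of the 41 that was not lower.

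All 8 genes of microvilli and the enterocyte cytoskeleton were lower, with a median of -0.42. Krt20, a keratin of mature cells, was at 11.12, 11.08 and 10.96 on the control arrays and the Zip7 KO array labelled Lgr5-Hi and at 10.35 in that labelled Lgr5-Med, a difference of -0.73 (1.66-fold). Cdhr2 and Cdhr5, the protocadherins that link the tips of neighbouring microvilli, differed by -0.70 and -0.47, and Ush1c and Myo7b, the scaffold and the motor of the same link complex, by -0.23 and -0.15. The membrane-tethering motor Myo1a differed by -0.55, and the actin-bundling proteins Espn and Vil1 by -0.36 and -0.30. Among the link genes named here, those of the adhesion proteins thus had larger RNA differences under Lgr5-Med than those of the intracellular partners, on single arrays. Under Lgr5-Hi this order did not hold, with Cdhr2 at -0.24, Cdhr5 at -0.01, Ush1c at -0.04 and Myo7b at 0.14.

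Under Lgr5-Med the transcription factors had the smallest median difference of the roles, -0.12. Hnf4a was at 11.96 and 12.06 in controls and 11.89 and 11.93 in Zip7 KO, and its arrays spanned 0.16. Hnf4g was at 10.61 and 10.18 in controls and 10.93 and 10.12 in Zip7 KO, higher on both arrays labelled Lgr5-Hi. Cdx2 was at 9.76 and 9.81 in controls and 9.43 and 9.61 in Zip7 KO. Under Lgr5-Med they differed by -0.12, -0.06 and -0.20, while Mgam, Mme, Slc7a8 and Dpp4 differed by less than Cdx2 and Hnf4a. Alpi, Treh and Slc3a1, whose HNF4 matches are printed above, differed by -0.65, -0.61 and -0.37, and Sis, printed for its CDX2 match, by -0.18. Slc26a3 and Cdhr2, with HNF1 matches, differed by -0.54 and -0.70. Car4 and Slc5a4a, at 2.82-fold and 3.20-fold lower, have no match to HNF4, CDX2 or HNF1 in these letters. They were printed because their differences were the lowest, so their size says nothing about the matches. A link between matches and differences was not tested.

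**Figure D2:**
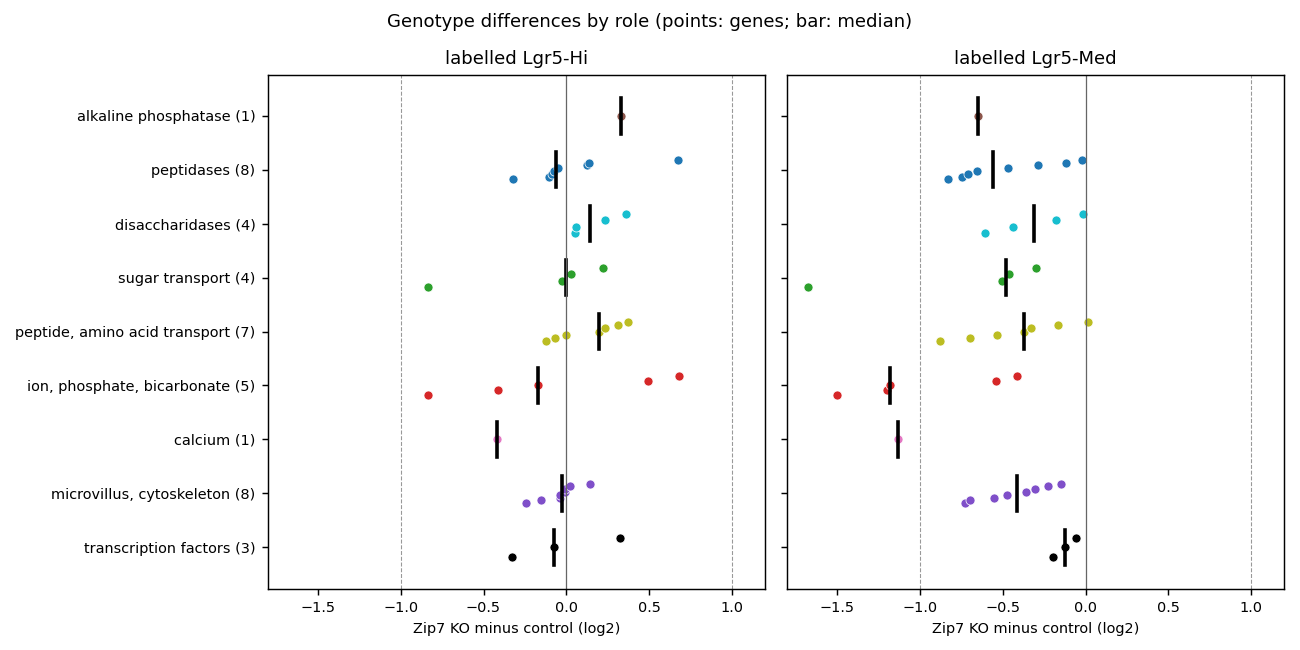
Zip7 KO minus control differences (log2, x axis) of the 41 genes by role, for the arrays labelled Lgr5-Hi on the left and Lgr5-Med on the right, with the number of genes in brackets. Points are genes, black bars medians and dashed lines 2-fold, and on the right all medians are below 0, from -0.12 for transcription factors to -1.18 for ion, phosphate and bicarbonate transport.

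Under the label Lgr5-Hi the same genes had no common direction. Of the 41 genes 21 were lower in Zip7 KO and 20 higher, where 45.0% and 55.0% of all 11988 genes were, and the median was -0.01 against 0.02. The split depended on the scaling, with 16 lower when each array was centred on its median and 25 lower after quantile normalisation or removal of the trend on level. No gene reached 2-fold, which 0.25% of all genes did upwards and 0.234% downwards, and 4 reached 1.5-fold, 2 in each direction, against 1.08% and 0.926%.

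The 2 higher were Slc26a3 and Mme. Slc26a3 stood at 9.52 and 8.98 on the control arrays labelled Lgr5-Hi and Lgr5-Med and at 10.20 and 8.44 in the Zip7 KO arrays. Its Zip7 KO arrays were the highest and the lowest of the 4, with differences of 0.68 and -0.54. Mme was at 9.05 and 9.50 in controls and 9.72 and 9.47 in Zip7 KO. The low array here was the control labelled Lgr5-Hi, from which the Zip7 KO array differed by 0.67 (1.60-fold). The 2 lower were Slc34a2 at -0.84 (1.79-fold) and Slc5a4a at -0.83 (1.78-fold), which were also lower under Lgr5-Med.

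By role, the 4 disaccharidase genes were all higher under Lgr5-Hi, by 0.05 (Lct) to 0.36 (Sis), with a median of 0.14. Over all genes 55.0% were higher in this comparison, so counts in groups this small say little. Of the peptide and amino acid transporters 5 of 7 were higher with a median of 0.20, led by Slc3a1 at 0.37 and Slc7a9 at 0.31, and Alpi was higher by 0.33. The microvillus genes lay near 0, from -0.24 (Cdhr2) to 0.14 (Myo7b), with Vil1 at 0.02. The chloride-bicarbonate exchanger gene Slc26a6 was higher by 0.49, and Car4 and S100g were lower by -0.41 and -0.42. Of the factors, Hnf4g was at 0.32 and Cdx2 at -0.33.

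**Figure D3:**
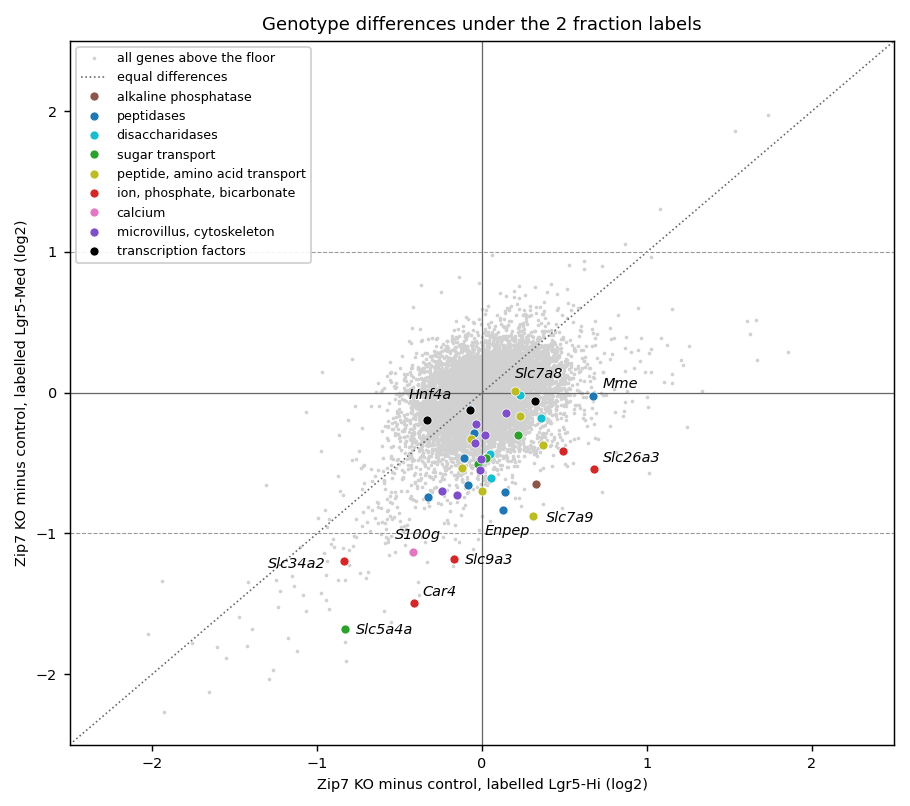
Zip7 KO minus control differences (log2) of the arrays labelled Lgr5-Hi on the x axis and of those labelled Lgr5-Med on the y axis, with the 41 genes in colours by role and the other genes above the floor in grey, cropped to the axes. The dotted line marks equal differences and dashed lines 2-fold under Lgr5-Med, and 40 of the 41 genes lie below the line of equal differences, Cdx2 being the exception.

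The 2 genotype comparisons share no array, and set side by side they gave 21 of the 41 genes lower in Zip7 KO under both labels (30.8% of all 11827 genes compared under both), 19 higher under Lgr5-Hi and lower under Lgr5-Med (25.1%), and 1, Slc7a8, higher under both (30.0%). The opposite order, lower under Lgr5-Hi and higher under Lgr5-Med, was found in 0 of the 41, against 14.1% of all genes. Across the 41 genes the differences under the 2 labels had a Pearson r of 0.62 and a Spearman rho of 0.47, against 0.53 and 0.35 across all 11827 genes. Genes are not independent replicates, the 2 arrays of a genotype may share mice, and these coefficients are descriptions.

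The genotype difference under Lgr5-Hi exceeded that under Lgr5-Med in 40 of the 41 genes, by a median of 0.49, where it did so in 60.5% of all genes with a median of 0.06. The excess was not tested. Other cell types showed it as well, with 9 of 9 Paneth markers (median 0.57), 8 of 10 goblet markers (0.49), 6 of 6 markers of the distal intestine (0.47) and 14 of 14 enterocyte markers outside the 43 (0.30). So did 5 of 6 markers of the proximal intestine (0.31), 10 of 11 lymphocyte and myeloid markers (0.18) and 5 of 7 pan-epithelial markers (0.11). In tuft cell markers the gap ran the other way in 7 of 7, with a median of -0.39. It was also reversed in 14 of 16 stem cell and crypt base markers (-0.23) and in 5 of 5 stromal genes (-0.25). The same held for 9 of 12 proliferation genes (-0.12) and 8 of 12 enteroendocrine markers (-0.05). Among the 41 genes the widest gaps were those of Slc26a3 (1.22), Slc7a9 (1.19), Car4 (1.08) and Slc9a3 (1.01). These are 3 of the 5 genes of ion, phosphate and bicarbonate transport and the light subunit of the cystine carrier. Alpi and Enpep followed with 0.98 and 0.96. At the other end stood Dpp4 at 0.04, Hnf4a at 0.05 and Cdx2 at -0.14.

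The comparison of fractions within a genotype shows the same 4 arrays from the other side. In controls, the arrays labelled Lgr5-Hi and Lgr5-Med had similar levels of these genes, with 20 of 41 higher and 21 lower under Lgr5-Hi (43.3% and 56.7% of 12248 genes) and a median of -0.02 against -0.04 for all genes. Only Car4 reached 2-fold, at 1.11 higher under Lgr5-Hi (2.16-fold), where 0.669% of all genes did in that direction. Those lower under Lgr5-Hi included 7 of 8 peptidases, with Mep1a at -0.51 and Mme at -0.44, and 3 of 4 disaccharidases, with Treh at -0.38. Those higher included 4 of 5 genes of ion, phosphate and bicarbonate transport and 6 of 8 of microvilli, with Slc26a3 at 0.54 and Myo1a at 0.26. Over the same 2 arrays 16 of 16 stem cell and crypt base markers were lower under Lgr5-Hi, with a median of -1.25. Markers of secretory and tuft cells were all higher there, 12 of 12 for enteroendocrine cells (median 2.57), 9 of 9 for Paneth cells (1.04), 10 of 10 for goblet cells (0.98) and 7 of 7 for tuft cells (0.68). The part of these cells in the fraction differences was not tested.

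In Zip7 KO, by contrast, 36 of the 41 genes were higher under Lgr5-Hi, against 49.3% of 12114 genes, with a median of 0.52 against -0.0045. The genes at least 2-fold higher numbered 7, against 1.87% of all genes, and those at least 1.5-fold higher 16, against 5.9%. The 7 were Car4 (4.58-fold), Slc26a3 (3.38-fold), Slc7a9 (2.33-fold), Slc26a6 (2.28-fold), Alpi (2.24-fold), Slc9a3 (2.16-fold) and Enpep (2.08-fold). They span bicarbonate, chloride and sodium transport, cystine uptake, and an ecto-enzyme each for phosphate esters and peptides. The 5 lower, against 50.7% of all genes, were Dpp4 at -0.20, Cdx2 at -0.18, Myo7b at -0.13, Hnf4a at -0.04 and Slc34a2 at -0.03. The stem cell and crypt base markers were again all lower (16 of 16), at a median of -1.43. Enteroendocrine (12 of 12, median 2.54), Paneth (9 of 9, 1.57) and goblet markers (10 of 10, 1.27) were all higher, by larger medians than the 41 genes, and tuft markers were higher in 6 of 7 (0.39). Across the 41 genes the fraction differences of the 2 genotypes had a Pearson r of 0.80 and a Spearman rho of 0.74, against 0.78 and 0.67 across 11958 genes, again as a description.

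**Figure D4:**
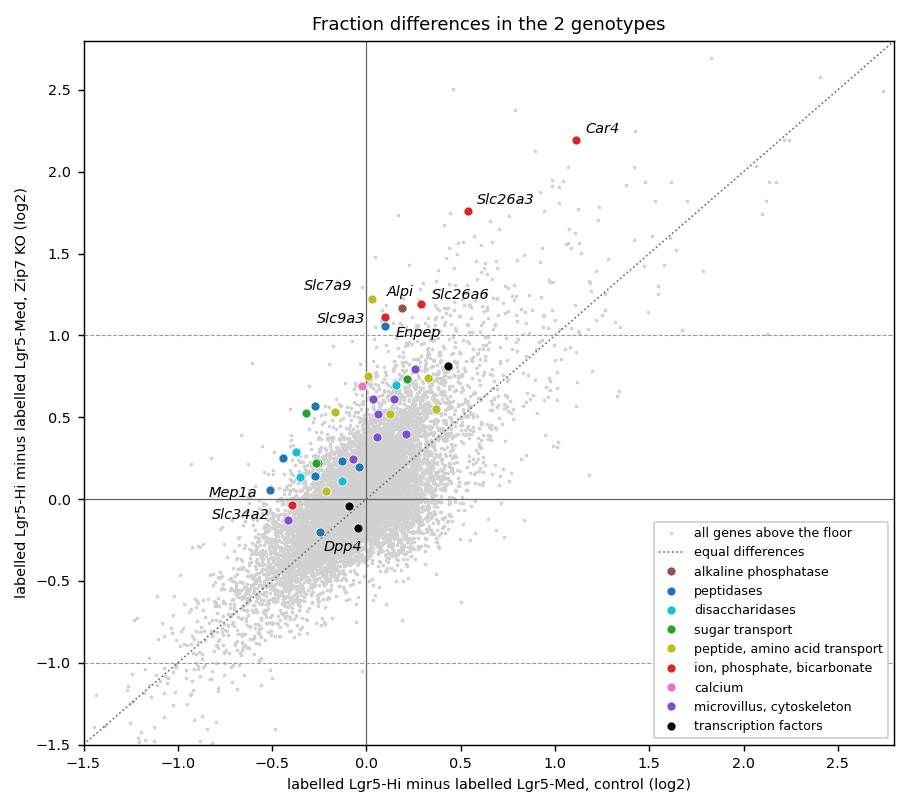
Differences between the arrays labelled Lgr5-Hi and Lgr5-Med (log2), in controls on the x axis and in Zip7 KO on the y axis, with the 41 genes in colours by role and the other genes above the floor in grey, cropped to the axes. In controls the 41 genes spread from -0.51 to 1.11 around a median of -0.02, and in Zip7 KO from -0.20 to 2.19 around a median of 0.52, so that most lie above the dotted line of equal differences.

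Array by array, the Zip7 KO array labelled Lgr5-Med was the lowest of the 4 for 33 of the 41 genes (80.5%), a position it had for 30.1% of the 12404 genes above the floor on any array, and it was the highest for 0 of them, against 25.6%. Dpp4, Slc34a2, Hnf4a and Cdx2 were lowest in the Zip7 KO array labelled Lgr5-Hi (4 genes, against 24.3% of all genes). Mme, Mgam and Myo7b were lowest in the control array labelled Lgr5-Hi (3 genes, against 28.6%), and Slc7a8 in the control array labelled Lgr5-Med (1 gene, against 16.9%). The highest array was the control labelled Lgr5-Med for 19 genes (46.3% against 27.6%), the Zip7 KO labelled Lgr5-Hi for 14 (34.1% against 26.8%) and the control labelled Lgr5-Hi for 8 (19.5% against 20.0%). The peptidases and disaccharidases made up much of the first set, with Anpep, Dpp4, Mep1a, Mep1b, Ace, Xpnpep2, Lct and Treh, together with the sugar carriers Slc5a1, Slc2a2 and Slc5a4a. Slc26a3, Slc26a6, Alpi, Sis and the amino acid carrier genes Slc7a9, Slc3a1, Slc7a7 and Slc7a8 were in the second.

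Other genes of the same or related functions, from lists that do not hold the 43, were compared in the same way. Of all genes 55.8% were lower under Lgr5-Med and 45.0% under Lgr5-Hi, with medians of -0.03 and 0.02. Several of the counts under Lgr5-Hi lie near that share. Of the other brush border enzymes 8 of 9 above the floor were lower under Lgr5-Med with a median of -0.52, among them the neutral ceramidase Asah2 at -0.64, the ecto-nucleotidase Nt5e at -0.61 and the peptidase Naaladl1 at -0.54, and Alpl at 0.12 was the 1 higher. Under Lgr5-Hi 5 of 9 were lower with a median of -0.05. These 9 include Lgmn (legumain), a protease of lysosomes and not of the brush border. Its -0.52 is the median under Lgr5-Med, and its -0.72 the lowest value of the list under Lgr5-Hi. Of the other transporters 29 of 40 were lower under Lgr5-Med with a median of -0.17, the lowest being the amino acid transporter Slc43a2 at -0.80, the zinc importer Slc39a4 at -0.62 and the proline transporter Slc6a20a at -0.60, while the chloride channel Cftr was at 0.29. Under Lgr5-Hi 12 of 40 were lower with a median of 0.12. Of the other microvillus and apical scaffold genes 23 of 27 were lower under Lgr5-Med with a median of -0.18, the lowest being the PDZ protein gene Pdzd3 at -0.69, Mall at -0.53 and the PDZ protein gene Pdzk1 at -0.49, and 15 of 26 under Lgr5-Hi with a median of -0.01. The other transcription factors of absorptive cells had 16 of 20 lower under Lgr5-Med with a median of -0.11, with Creb3l3 and Maf at -0.60 and -0.57, and 11 of 20 under Lgr5-Hi with a median of -0.01. None of these genes reached 2-fold in either comparison, a fold that 0.621% of all genes passed downwards under Lgr5-Med and 0.234% under Lgr5-Hi.

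Several lists of markers of other cells, but not all, moved with genotype on the same arrays. Of all genes 45.0% were lower under Lgr5-Hi and 55.8% under Lgr5-Med. Some counts below lie near these shares, such as that of enteroendocrine markers under Lgr5-Med. The 9 Paneth cell markers above the floor were lower in 8 cases under Lgr5-Hi (median -0.83) and in 9 under Lgr5-Med (median -1.47), and 7 and 9 of 10 goblet cell markers were lower (medians -0.14 and -0.42). Among lymphocyte and myeloid genes 11 of 11 and 12 of 12 were lower, with a median of -0.94 under each label, while the stem cell and crypt base markers had medians of -0.11 and 0.07, the proliferation genes -0.11 and -0.01 and the pan-epithelial genes 0.10 and 0.05. Enteroendocrine markers were lower in 9 and 6 of 12 (medians -0.29 and -0.09) and tuft markers in 5 and 1 of 7 (-0.05 and 0.17). The enterocyte markers outside the 43 were lower in 5 of 14 under Lgr5-Hi and 13 of 14 under Lgr5-Med (0.02 and -0.32). The mean log2 level of the Paneth list was 10.84 and 9.96 on the controls labelled Lgr5-Hi and Lgr5-Med and 10.22 and 8.75 in Zip7 KO, that of the goblet list 11.07 and 10.09 against 10.95 and 9.56, and that of the lymphocyte and myeloid list 7.97 and 8.30 against 7.23 and 7.33. Ptprc, the pan-leukocyte antigen CD45, was at 6.44 and 6.53 in controls, just above the floors, and under the floors in Zip7 KO. The list of markers of the distal intestine was lower in 4 of 6 and 6 of 6 cases (medians -0.29 and -0.72). Under Lgr5-Med its ileal genes Fabp6 and Cubn were at -1.77 and -1.34, and at the other end Slc10a2 was at -0.36 and Osr2 at -0.17. The list of the proximal intestine, which holds Lct, had medians of 0.13 and -0.05. Under Lgr5-Med its iron exporter gene Slc40a1 was at 7.94 on the control array, with a Zip7 KO value under the floor. Its genes Onecut2 and Gata4 were higher there, by 0.28 and 0.07, and the other 4 of 6 were lower. The part of these cells, and of the segment of intestine sampled, in the brush border results was not tested.

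**Figure D5:**
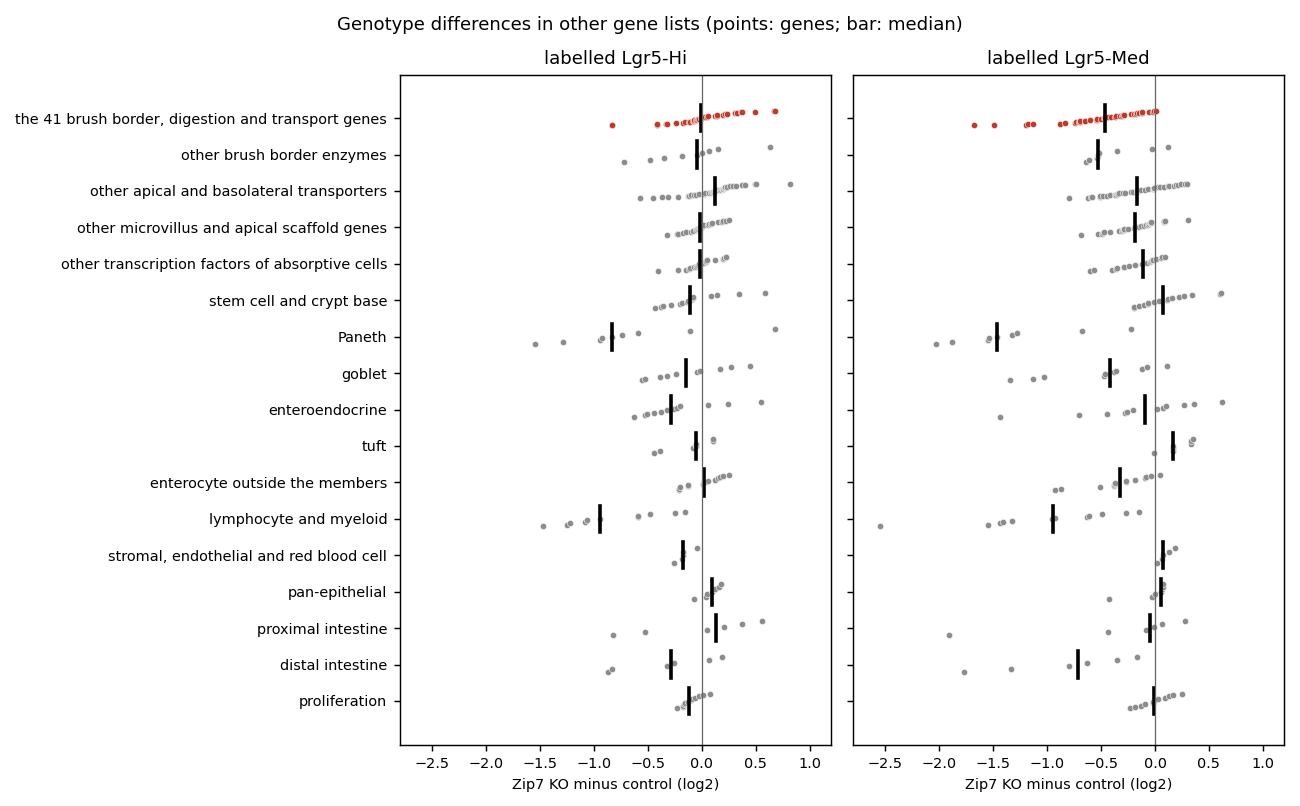
Zip7 KO minus control differences (log2, x axis) of the 41 genes, in red, and of the genes above the floor in 16 other lists, in grey, for the arrays labelled Lgr5-Hi on the left and Lgr5-Med on the right. Points are genes and black bars medians, which for the 41 genes are -0.01 and -0.47, and for Paneth cell markers -0.83 and -1.47.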

How the data were processed

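RNA of 4 sorted crypt cell fractions, 1 array each, was analysed from the value table of the series. The authors deposited log2 values per probe set made with RMA, which the submitters' processing notes name. The sources used here do not name the software version, build or probe annotation, and the log2 scale was read from the range, 3.08 to 14.6. Of 35557 probe sets 21789 had 1 gene symbol, 1621 several and 12147 none in the platform annotation, and only the first kind was used. The floor of an array was percentile 95 of 1207 receptor genes of the nose (olfactory, vomeronasal, trace amine), and a gene entered a comparison if above it on either array. Differences are of single arrays in 4 comparisons, with no test, and genes were counted at 2-fold and 1.5-fold. The counting was tested on simulated data. Scaling, probe set choice, floor and fold were varied, and leaving out the X-linked genes was added after seeing the data. Genes and lists were chosen with earlier results of these data known. All genes listed by role are described, and others are named from the 3 highest or lowest of a list or where a result turns on them. Python 3.11.15, pandas 2.3.3 and statsmodels 0.14.6 were used.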

Additional observations from a re-analysis of the deposited data

Results flagged for a closer look

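For 19 of the 41 genes the Zip7 KO array was above its control under the label Lgr5-Hi and below it under Lgr5-Med, so that the genotype differences had opposite signs. Of all 11827 genes compared under both labels 25.1% had this pattern. With 1 array per group this difference between labels was not tested. As the difference under Lgr5-Hi minus that under Lgr5-Med on the log2 scale, it was 1.22 for Slc26a3, 1.19 for Slc7a9, 0.98 for Alpi, 0.96 for Enpep, 0.90 for Slc26a6 and 0.84 for Mep1b. It was 0.74 for Slc3a1, 0.70 for Slc6a19, 0.69 for Mme, 0.66 for Treh, 0.54 for Sis and 0.52 for Slc2a5. The smaller values were 0.49 for both Lct and Slc2a2, 0.40 for Slc7a7, 0.38 for Hnf4g, 0.32 for Vil1, 0.29 for Myo7b and 0.24 for Mgam. Some of these rest on a difference near 0 under 1 label, such as 0.00038 for Slc6a19 and 0.02 for Vil1 under Lgr5-Hi and -0.01 for Mgam under Lgr5-Med.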

How the results depend on the processing

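Counting at 1.5-fold in place of 2-fold moved the number of genes past the fold from 0 to 4 for Zip7 KO against control under Lgr5-Hi, from 5 to 15 under Lgr5-Med, and from 7 to 16 for the fractions in Zip7 KO. Under median centring, quantile normalisation, loess removal, averaged probe sets, a floor at percentile 99, no floor, or without the X-linked genes, the median under Lgr5-Med ranged from -0.47 to -0.44. The genes lower were 38 of 41 under median centring, 38 of 39 without the X-linked genes, 41 of 42 with no floor and 40 of 41 in the other settings. Averaging could not change any value, since each gene had a single probe set, so its agreement is no sign of stability. The floor settings changed no value either, and removing the floor only let Trpv6 enter. The median fraction difference in Zip7 KO ranged from 0.47 to 0.53. The gap between the genotype differences of the 2 labels ranged from 0.40 to 0.51. The medians near 0 turned sign, from -0.08 to 0.04 for genotype under Lgr5-Hi and from -0.04 to 0.06 for the fractions in controls. No paired analysis was possible because each group has 1 array, and no replicate could be left out. Signal near the floor limits Slc5a4a and Trpv6.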
